A study of Mus musculus with 8 samples.

Results

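The kinetochore and spindle checkpoint genes described here are 39 named genes whose proteins build the kinetochore on the centromere or watch over its attachment to the spindle. They were taken by name, out of 25239 gene symbols counted in each library. All 39 had counts in every library, between 15 and 3258 reads, and all 39 were among the 14249 genes with enough counts to be tested. RNA-Seq was carried out on whole ovaries of C57BL/6 mouse fetuses at E14.5, in 4 libraries of *Bmpr1a* fl/fl controls and 4 libraries of *Bmpr1a* fl/fl; *Oct4*-Cre Cre/WT fetuses (*Bmpr1a*-cKO, here cKO), to ask what germ cells of the fetal ovary express when they lack the type I BMP receptor BMPR1A. Each library pooled the ovaries of 2 fetuses. Both genotypes were exposed in utero to 1 mg of 4-hydroxytamoxifen and 0.5 mg of progesterone, given to the dam on 3 days (9.5 dpc, then 10.5 dpc, then 11.5 dpc), and both carried floxed *Bmpr1a*, so that the Cre allele was what set them apart. The tamoxifen-inducible Cre is driven from the *Oct4* locus and acts in germ cells, whereas the somatic cells in the same libraries keep the receptor.

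The kinetochore is layered. Chromatin that carries the histone variant CENP-A and the constitutive centromere-associated network (CCAN) form its inner layer, the MIS12 and NDC80 complexes with their partners form the outer layer that holds microtubules, and the fibrous corona catches microtubules before firm attachment. Kinetochores without attached microtubules signal through BUB and MAD proteins to hold the cell before anaphase, and the chromosomal passenger complex with its Aurora kinase releases wrong attachments. Many of these genes are transcribed mainly in G2 and M phase, and in the fetal ovary they serve the mitoses of germ cells and soma and, later, the divisions of meiosis.

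Of the 39 genes, 19 rose in cKO ovaries, 1 fell (*Bub1*) and 19 did not pass the test (edgeR quasi-likelihood F test, FDR below 0.05). Over all genes tested, 17.3% passed as higher and 12.5% as lower. Of the 19 that rose, 10 were DEGs with an absolute Log2FC above 0.5, where 6.11% of all genes were DEGs higher in cKO and 4.06% were DEGs lower in cKO. These were *Cenpa*, *Cenpi* and *Cenpt* of the inner kinetochore, *Nuf2* and *Spc25* of the NDC80 complex, *Bub1b* and *Bub3* of the checkpoint, and the 3 Aurora kinase genes *Aurka*, *Aurkb* and *Aurkc*. The median Log2FC of the 39 genes was 0.29 and their range was -0.35 to 1.96, beside a median of -0.0042 over all genes tested. In 18 of the 39, all cKO libraries lay above all control libraries, and in 2 all lay below, against 16.1% and 11.7% of all genes. The summed level of the 39 genes was 1626 to 1730 CPM in control libraries and 1905 to 2100 CPM in cKO libraries, so that the genotypes did not overlap. When libraries were scaled to germ cell markers, the same 10 DEGs passed as higher and 0 members as lower. Over all genes, 4.98% passed as higher and 2.86% as lower. All of these 710 higher and 408 lower genes had an absolute Log2FC above 0.5. Since no gene with a smaller change passed, this scaling cannot set the 10 apart from the other members. Why smaller changes did not pass was not tested. Values are counts scaled to library size by TMM (CPM), with the 4 libraries of each genotype numbered as labelled. In whole ovaries, more cells of a type and more RNA per cell cannot be told apart.

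**Figure D1:**
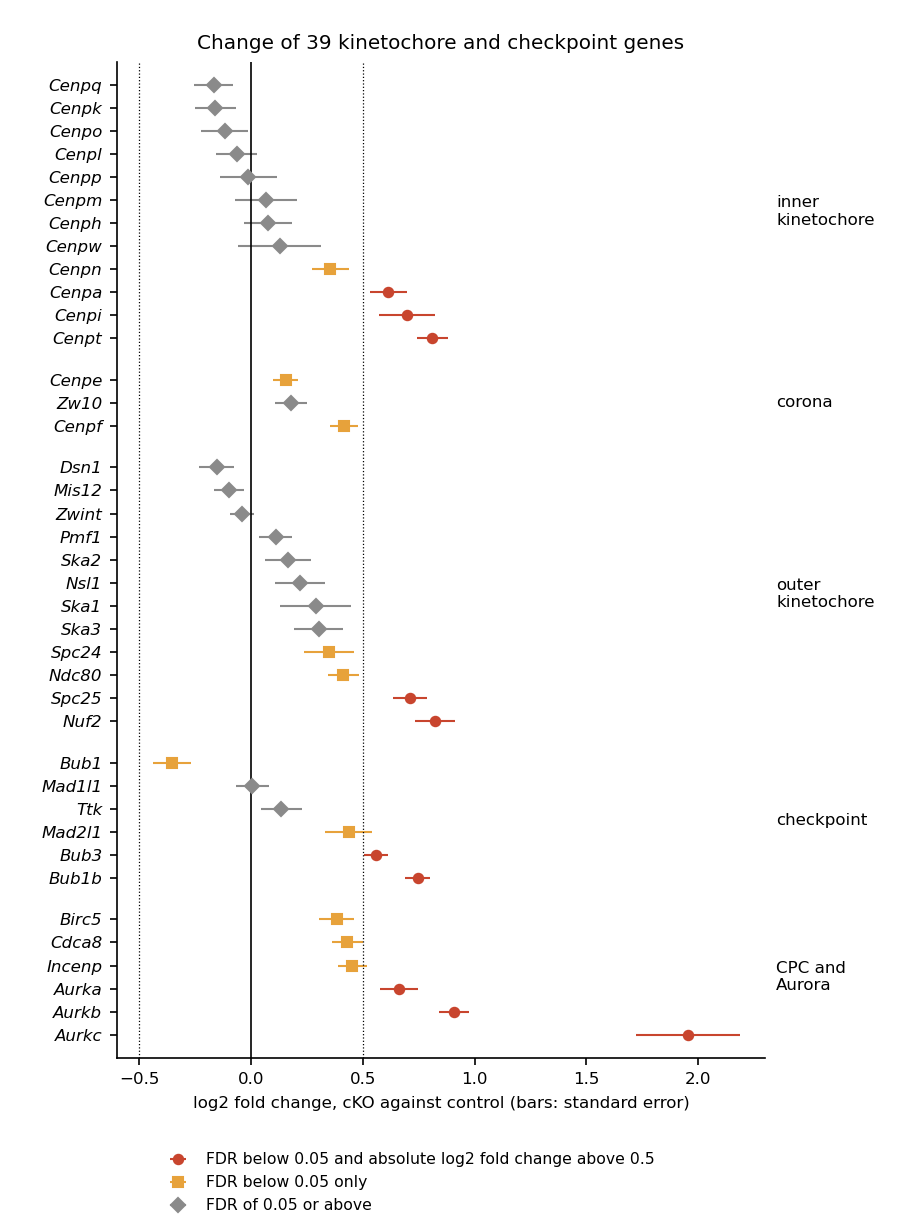
Log2 fold change of each of the 39 genes in cKO against control ovaries, with the standard error as a bar, grouped by layer of the kinetochore and ordered by value within each layer. Dotted lines mark a Log2FC of -0.5 and 0.5, and the 10 DEGs, drawn as red circles, all lie to the right, while *Bub1* is the 1 coloured point left of zero.

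Library depth was 8562961 to 15365052 counts. The *Rn45s* ribosomal RNA gene took 13.1% to 16.7% of the counts of a library, with overlap between genotypes. *Bmpr1a* itself was at 199 to 237 CPM in control and 185 to 209 CPM in cKO libraries (Log2FC -0.16, FDR = 0.0692). This is a count over the whole gene in a tissue whose soma keeps it, and it was not used to check the labels. By qRT-PCR of ovaries, the paper reported *Bmpr1a* significantly lower in the mutants at each timepoint it analysed. The reason for the difference between the 2 measures was not tested. Summed CPM of germ cell markers (11 genes, 3 higher and 3 lower at FDR below 0.05) was 866 to 1128 in control and 830 to 1291 in cKO libraries. Of the somatic lists, 9 of 12 pregranulosa markers were lower (2203 to 2557 against 1926 to 2258 CPM) and 5 of 7 macrophage markers higher (37.5 to 47.0 against 50.3 to 67.4 CPM). The other lists gave 2 of 7 Sertoli markers lower (33.7 to 38.5 against 26.2 to 30.5 CPM), 1 of 4 steroidogenic markers lower (42.2 to 48.4 against 25.02 to 43.6 CPM), and 1 higher and 2 lower of 7 mesonephros markers (138 to 169 against 109 to 127 CPM). None of 8 stroma markers (2785 to 3604 against 2682 to 3338 CPM) or 8 endothelium markers (348 to 406 against 325 to 379 CPM) passed in edgeR (at an unadjusted p under 0.05, 0 and 1; with limma-voom or DESeq2, 0 in both), and 1 of 4 erythroid markers was lower (277 to 421 against 245 to 333 CPM), with *Hba-a1*, *Hba-a2*, *Hbb-bs* and *Hbb-bt* at 0 in every library. The part of these shifts in the results on the 39 genes was not tested.

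Among the cKO libraries, library 1 had the lowest sum of germ cell markers (830 CPM, against 1106 to 1291 in the others), and it was the lowest cKO library for 26 of the 39 genes. Among the controls, library 3 had the highest sum (1128 CPM, against 866 to 949) and was the highest control library for 19 of the 39. Without both of these libraries, 21 of the 39 genes were higher and 1 lower, with 11 DEGs, where 18.6% of all genes passed as higher, 15.5% as lower and 7.20% were DEGs higher in cKO. The heatmap of single libraries shows the paler column of cKO library 1.

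**Figure D2:**
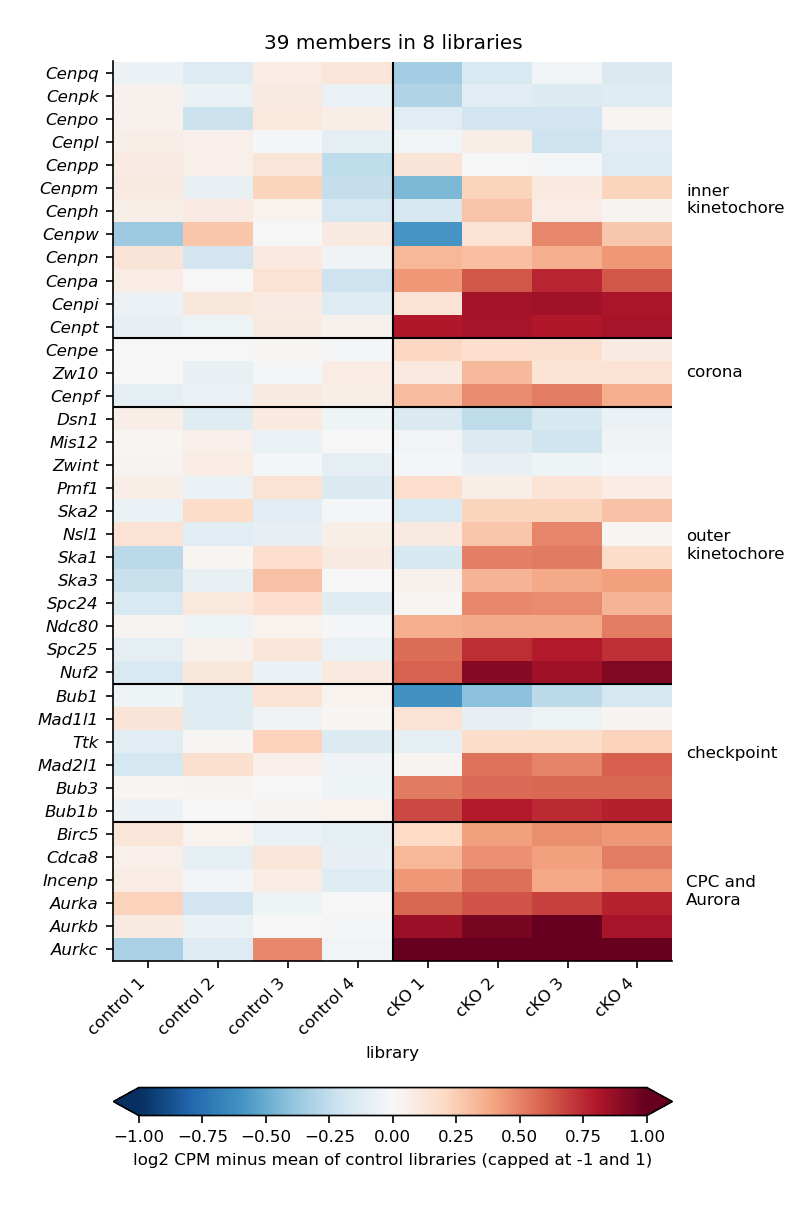
Level of the 39 genes (rows, grouped by layer) in each of the 8 libraries (columns), as log2 CPM minus the mean of the 4 control libraries, with the colour capped at -1 and 1. The rows of *Cenpt*, *Bub1b*, *Bub3*, *Aurkb* and *Aurkc* are red in all 4 cKO libraries, and the row of *Bub1* is blue in all 4.

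The DNA at the start of these genes was read as a description, with no test. Genes of G2 and M phase often carry a cell cycle genes homology region (CHR) near the transcription start, bound by complexes that hold these genes silent outside their phase, and a CCAAT box, bound by NF-Y. RefSeq promoter windows on GRCm38.p6 ran from 250 bases before to 50 bases after the RefSeq gene start. They were matched for 34 of the 39 genes and gave 38 windows. *Spc24*, *Ska1*, *Nsl1*, *Incenp* and *Aurkb* had no window. Both strands were searched for the CHR letters TTTGAA or TTTAAA and for CCAAT, where TTTAAA reads the same on both strands and counts once, and a CHR and a CCAAT box can share an end letter. A CHR stood in 20 of the 38 windows (52.6%), against 19.4% of the 14321 windows of tested genes and 27.6% of all 32851 windows. A CCAAT box stood in 26 (68.4%), against 37.8% and 37.4%, and both stood in 15 (39.5%), against 7.76% and 10.7%. TTTAAA is also a TATA-like run of letters, and with TTTGAA alone the share was 42.1%, against 11.9% of the windows of tested genes.

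Counted by gene, a CHR was found in 12 of the 16 windowed genes that rose and in 7 of the 18 that did not. The match was TTTAAA only in *Cenpe*, *Cenpt* and *Birc5*, which rose, and in *Zwint*, which did not. The difference between these shares was not tested. Among all tested genes with a window, a CHR was found in 25.4% of those that rose, 20.04% of those that fell and 22.0% of the rest. The CCAAT box showed no such contrast in count, with 11 of 16 and 12 of 18 genes. The CHR matches clustered at the RefSeq gene start, taken as base 0. Of 25 matches, 16 (64.0%) began between base -25 and base 49, against 15.3% of the matches in windows of tested genes. This start can differ from the GENCODE start printed with a gene. The *Cenpa* stretch below, for example, covers 30666776 to 30666915, while its GENCODE gene starts at 30666777. For the CCAAT box, 26 of 50 matches (52.0%) began between -125 and -26, against 50.3%. The 2 windows of *Bub3* overlap, so its sites count in both. These are letter matches and not shown sites of binding.

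**Figure D3:**
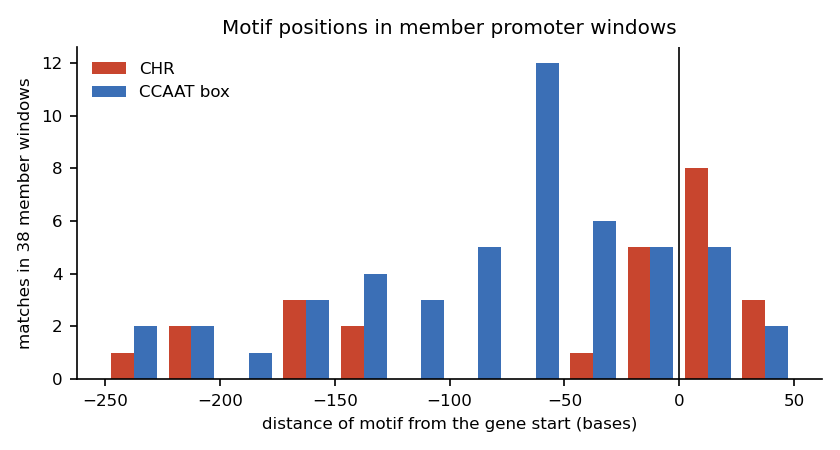
Number of CHR and CCAAT matches in the 38 promoter windows of the member genes, by distance in bases from the RefSeq gene start. Bins are 25 bases wide. CHR matches are most frequent around and just after the start (line at 0), and CCAAT matches most frequent about 50 bases before it.

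The 6 stretches shown, from RefSeq on GRCm38.p6, each span 140 bases from 110 before to 30 after the RefSeq gene start. They run 5′ to 3′ on the strand of the gene. Capitals mark the CHR letters and the CCAAT box on either strand. The first 4 belong to DEGs of 4 different roles that hold both motifs, with the first of the 2 windows for *Bub3*.
Cenpa promoter, chr5:30666776-30666915, plus strand: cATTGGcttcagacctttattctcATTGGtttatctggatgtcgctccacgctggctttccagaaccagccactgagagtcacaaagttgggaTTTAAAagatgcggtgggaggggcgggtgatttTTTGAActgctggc
Spc25 promoter, chr2:69206184-69206323, minus strand: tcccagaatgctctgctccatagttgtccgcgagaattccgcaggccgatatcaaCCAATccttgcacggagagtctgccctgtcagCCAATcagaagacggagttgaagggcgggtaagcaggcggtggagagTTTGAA
Bub3 promoter, chr7:131560260-131560399, plus strand: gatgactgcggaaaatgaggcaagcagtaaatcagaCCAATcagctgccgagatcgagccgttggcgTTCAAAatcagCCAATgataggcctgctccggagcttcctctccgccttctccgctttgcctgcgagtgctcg
Aurka promoter, chr2:172370541-172370680, minus strand: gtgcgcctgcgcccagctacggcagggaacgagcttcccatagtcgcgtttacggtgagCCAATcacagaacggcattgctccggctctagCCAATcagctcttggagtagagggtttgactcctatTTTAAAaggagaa
The other 2 belong to the genes that stood at the ends of the range, *Bub1* (the lowest Log2FC) and *Aurkc* (the highest), and neither window held a CHR.
Bub1 promoter, chr2:127831830-127831969, minus strand: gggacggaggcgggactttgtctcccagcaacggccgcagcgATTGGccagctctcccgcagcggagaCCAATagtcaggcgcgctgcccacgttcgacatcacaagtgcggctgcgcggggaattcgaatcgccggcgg
Aurkc promoter, chr7:6995275-6995414, plus strand: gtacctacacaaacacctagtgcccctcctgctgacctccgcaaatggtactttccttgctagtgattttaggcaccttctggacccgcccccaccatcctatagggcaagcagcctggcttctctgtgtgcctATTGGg

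In the inner kinetochore, 4 of 12 genes rose and the median Log2FC was 0.071. *Cenpa* (chr5:30666777-30674830, plus strand) encodes the histone H3 variant that marks the centromere. It was at 59.9, 56.6, 62.7 and 49.1 CPM in control libraries 1 to 4 and 76.9, 87.4, 96.1 and 87.6 CPM in cKO libraries 1 to 4. Every cKO library stood above every control library, and the mean went from 57.05 ± 5.85 to 87.00 ± 7.86 CPM (SD, n = 4), a 1.53-fold rise (Log2FC 0.61 ± 0.08 SE, FDR = 6.63e-05 by edgeR). *Cenpt* (chr8:105844673-105853278, minus strand) encodes the histone-fold CCAN protein that reaches out to the NDC80 complex. It had 20.7, 21.1, 23.2 and 22.6 CPM in the control and 38.03, 38.7, 38.1 and 38.8 CPM in the cKO libraries, the tightest cKO libraries among the genes shown one by one. Its mean rose from 21.9 ± 1.199 to 38.4 ± 0.394 CPM (SD, n = 4) (Log2FC 0.81 ± 0.07 SE, FDR = 9.89e-07). *Cenpt* overlaps *Tsnaxip1* on the opposite strand, which was below 0.1 CPM on average in both genotypes. How reads in the overlap were counted is not known, and their part in the *Cenpt* count was not tested.

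*Cenpi* (chrX:134308084-134362639, plus strand), a CCAN subunit needed to load CENP-A, had 25.2, 28.4, 27.8 and 24.05 CPM in the control and 29.1, 46.9, 47.00 and 46.3 CPM in the cKO libraries. Here 3 cKO libraries lay close together and cKO library 1 stood apart, only just above the highest control. The mean moved from 26.4 ± 2.08 to 42.3 ± 8.84 CPM (SD, n = 4), 1.62-fold (Log2FC 0.70 ± 0.12 SE, FDR = 0.000634). *Cenpn*, which reads the CENP-A nucleosome, rose less (20.01 to 24.9 CPM in control and 28.1 to 30.8 CPM in cKO libraries, Log2FC 0.35 ± 0.08 SE, FDR = 0.00466), again without overlap of the genotypes.

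*Cenpi*, *Cenpn* and *Cenpt* each sit in a different CCAN unit, and their partners in these units did not pass. In the CENP-H/I/K/M unit, *Cenpi* rose while *Cenph* (Log2FC 0.076), *Cenpm* (0.067) and *Cenpk* (-0.16, FDR = 0.217) did not pass. All cKO libraries of *Cenpk* lay below all controls (14.2 to 15.8 CPM in control and 12.04 to 13.8 CPM in cKO libraries), though by a margin that missed the threshold. In the CENP-L/N pair *Cenpl* had a Log2FC of -0.064 (FDR = 0.651), and in the CENP-T/W pair *Cenpw* had 0.13 (FDR = 0.649). None of the 3 genes of the CENP-O/P/Q unit passed in edgeR, at Log2FC -0.17 to -0.012 and FDRs of 0.17 to 0.957, and 0 of 3 had an unadjusted p under 0.05 or passed with limma-voom or DESeq2.

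Of the 3 corona genes, 2 rose. *Cenpf*, a large protein of the corona and the nuclear envelope in G2, had 163, 166, 184 and 179.9 CPM in the control and 214, 239.6, 247 and 222 CPM in the cKO libraries, without overlap, and rose 1.33-fold (Log2FC 0.42 ± 0.06 SE, FDR = 0.000204). *Cenpe*, the kinesin that carries chromosomes to the spindle equator, was at 83.2 to 84.4 CPM in control and 88.8 to 96.7 CPM in cKO libraries, a rise of 0.15 ± 0.055 SE in Log2FC with FDR = 0.0446. This call was lost whichever single library was left out, at FDRs up to 0.114, and also with DESeq2 (FDR = 0.0609), under every other scaling (FDRs of 0.0569 to 0.74) and without the filter on low counts (FDR = 0.103). *Zw10*, which brings dynein to kinetochores, was higher in every cKO library (35.7 to 39.6 CPM in control and 40.2 to 46.9 CPM in cKO libraries) but missed the threshold (Log2FC 0.18, FDR = 0.0709).

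In the outer kinetochore, 4 of 12 genes rose with all 8 libraries, and all were of 1 complex. Without cKO library 1, the 3 SKA genes passed as well (below). All 4 genes of the NDC80 complex, the rod that grips the microtubule, rose, with a median Log2FC of 0.56. None of the 4 genes of the MIS12 complex, the bridge from CCAN to NDC80, passed in edgeR, with a median of 0.0055, and 0 of 4 had an unadjusted p under 0.05 or passed with limma-voom or DESeq2. Their summed levels were 91.6 to 102 CPM in control and 132 to 155 CPM in cKO libraries for NDC80, and 125 to 136 against 127 to 133 CPM for MIS12. The difference between the complexes was not tested.

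*Nuf2* (chr1:169497934-169531464, minus strand), the partner of NDC80 at the microtubule end of the rod, had 22.4, 27.01, 23.9 and 26.6 CPM in control libraries 1 to 4 and 37.4, 46.9, 44.8 and 47.2 CPM in cKO libraries 1 to 4. The genotypes did not overlap, and the mean rose 1.77-fold from 24.99 ± 2.196 to 44.1 ± 4.57 CPM (SD, n = 4) (Log2FC 0.82 ± 0.09 SE, FDR = 8.04e-06). *Spc25* (chr2:69193895-69206194, minus strand), at the other end of the rod where it meets the inner layer, had 29.7, 32.6, 34.5 and 30.3 CPM in the control and 46.6, 52.9, 54.96 and 52.7 CPM in the cKO libraries. Its mean rose 1.64-fold from 31.8 ± 2.197 to 51.8 ± 3.601 CPM (SD, n = 4) (Log2FC 0.71 ± 0.07 SE, FDR = 6.52e-06), and its promoter stretch above carries a CHR at the last bases shown. *Ndc80* itself rose by less than the DEG threshold (24.00 to 25.5 CPM in control and 31.95 to 35.5 CPM in cKO libraries, Log2FC 0.41 ± 0.07 SE, FDR = 0.000462). *Spc24* overlapped between genotypes (14.1 to 17.7 CPM in control and 15.98 to 21.9 CPM in cKO libraries, Log2FC 0.35 ± 0.11 SE, FDR = 0.0284), and its call was lost with library size as the only scaling (FDR = 0.058) and when control library 1 or 4 or cKO library 2, 3 or 4 was left out, at FDRs of 0.0614 to 0.106.

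The reads of the NDC80 complex per read of the MIS12 complex, a ratio chosen after its values were seen and given with no test, were 0.750 ± 0.0535 (SD, n = 4) in control and 1.14 ± 0.101 in cKO libraries. In the MIS12 complex, *Dsn1* had a Log2FC of -0.15 (FDR = 0.149), *Mis12* -0.099 (FDR = 0.307), *Pmf1* 0.11 (FDR = 0.285) and *Nsl1* 0.22 (FDR = 0.163). *Zwint*, a partner of the checkpoint scaffold KNL1, had the highest level per exon length of the 39 genes, in CPM per kb 37.3 ± 1.73 in control and 36.3 ± 0.593 in cKO libraries, and did not pass (Log2FC -0.04, FDR = 0.627). The 3 SKA genes, whose proteins follow the microtubule end, had Log2FC of 0.17 to 0.30, and none passed in edgeR's quasi-likelihood test, while 1 had an unadjusted p under 0.05, 1 passed in edgeR's likelihood ratio test, 1 with limma-voom and 0 with DESeq2. *Ska3* was nearest (Log2FC 0.30, FDR = 0.0505), and it passed in those 2 tests, without the filter on low counts, with the replicate number as a block (FDR = 0.0123), without control library 3 (Log2FC 0.40, FDR = 0.0104) and without cKO library 1 (0.37, FDR = 0.0116). Without cKO library 1, *Ska1* (FDR = 0.0475) and *Ska2* (FDR = 0.0447) passed as higher too, where 2806 of 14427 genes did. *Ska3* overlaps *Sap18* on the opposite strand, and *Sap18* was higher in cKO (Log2FC 0.56, FDR = 0.00244).

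**Figure D4:**
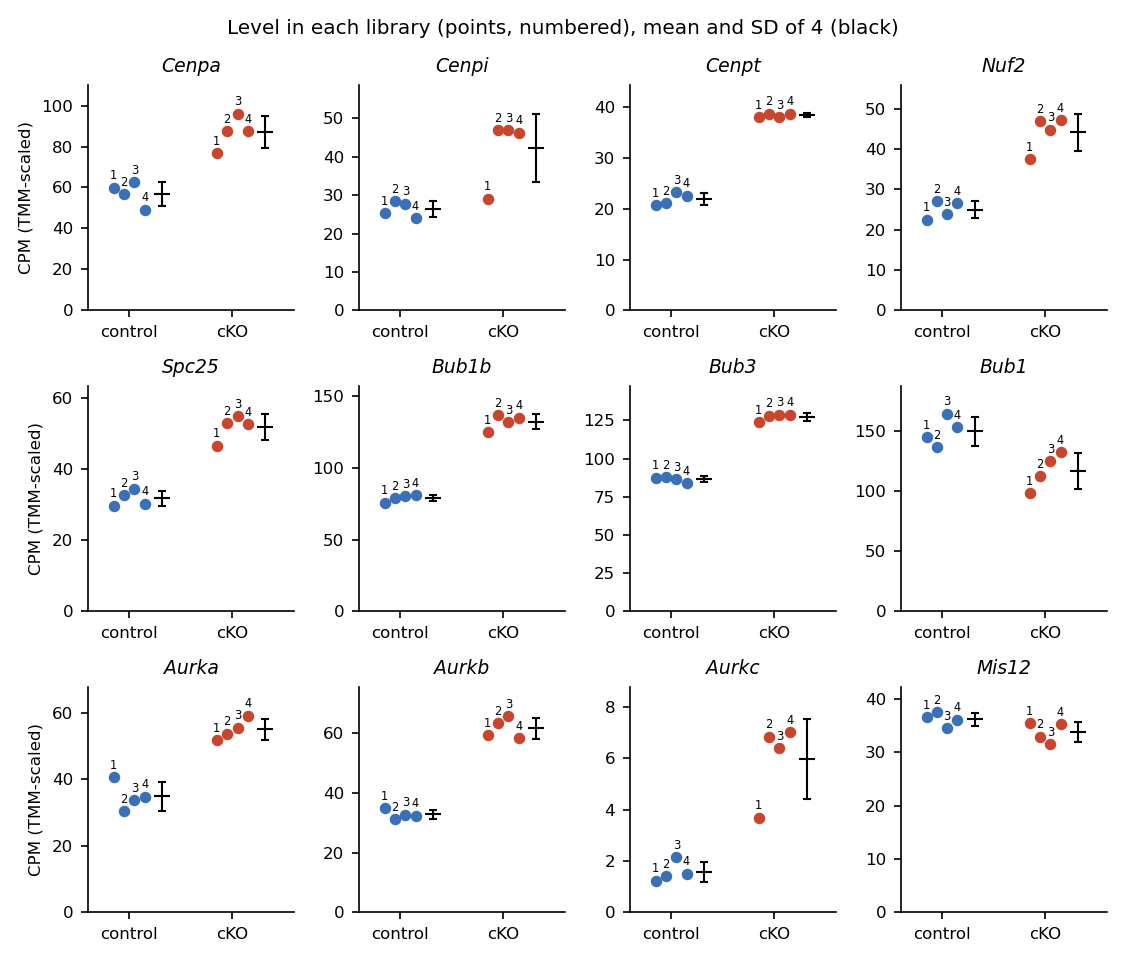
TMM-scaled CPM of 12 of the genes in each library, with points numbered by library and the mean and SD of 4 libraries in black, each axis starting at 0. The 10 DEGs stand higher in cKO libraries, *Bub1* stands lower, and *Mis12*, added as a gene that did not pass, overlaps between genotypes.

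In the spindle checkpoint, 3 of 6 genes rose and 1 fell. *Bub1b* (chr2:118598211-118641591, plus strand) encodes BUBR1, which with MAD2 and BUB3 binds and blocks the CDC20 activator of the anaphase-promoting complex. It had 75.7, 78.7, 80.4 and 80.8 CPM in control libraries 1 to 4 and 125, 137, 132 and 135 CPM in cKO libraries 1 to 4. The genotypes were far apart beside their spread, 78.9 ± 2.29 to 132 ± 5.34 CPM (SD, n = 4), 1.68-fold (Log2FC 0.74 ± 0.06 SE, FDR = 2.93e-07). *Bub3* (chr7:131560222-131571895, plus strand), the docking partner of both BUB1 and BUBR1, had 87.6, 88.02, 86.4 and 83.8 CPM in the control and 124, 128, 129 and 129 CPM in the cKO libraries. It rose 1.47-fold from 86.4 ± 1.89 to 127 ± 2.39 CPM (SD, n = 4) (Log2FC 0.56 ± 0.05 SE, FDR = 2.39e-06).

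*Bub1* (chr2:127801122-127831865, minus strand) encodes the kinase that marks centromeric histone H2A and so places shugoshin, and it was the 1 gene of the 39 that fell. It had 144, 136, 164 and 153 CPM in control libraries 1 to 4 and 97.9, 112, 125 and 132 CPM in cKO libraries 1 to 4. Every cKO library was below every control library, and the mean dropped from 149 ± 11.8 to 117 ± 14.99 CPM (SD, n = 4) (Log2FC -0.35 ± 0.08 SE, FDR = 0.00552 by edgeR), a cKO level 0.783 times that of control. Per exon length *Bub1* was second to *Zwint* in controls, at (in CPM per kb) 34.3 ± 2.71 in control and 26.8 ± 3.44 in cKO libraries. *Bub1b* on the same scale went from 18.5 to 30.9 CPM per kb, so in cKO libraries it stood above *Bub1*. In reads, *Bub1* per *Bub1b* was 1.89 ± 0.126 (SD, n = 4) in control and 0.882 ± 0.0944 in cKO libraries, ranges of 1.73 to 2.04 and 0.785 to 0.979. This ratio was chosen after its values were seen and is given with no test.

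*Mad2l1* (MAD2) was at 40.5 to 51.1 CPM in control and 46.5 to 68.98 CPM in cKO libraries (Log2FC 0.44 ± 0.11 SE, FDR = 0.0062), and the genotypes overlapped through cKO library 1. *Mad1l1*, whose protein anchors MAD2 at the kinetochore, did not pass (51.7 to 61.5 CPM in control and 52.9 to 61.9 CPM in cKO libraries, Log2FC 0.0060, FDR = 0.96), and the sign of its Log2FC changed with the scaling. *Ttk*, the MPS1 kinase at the head of the checkpoint, had a Log2FC of 0.13 (FDR = 0.30) and did not pass.

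All 6 genes of the chromosomal passenger complex and the Aurora kinases rose, and in all 6 the genotypes did not overlap; their median Log2FC was 0.56. *Aurkb* (chr11:69045647-69051664, plus strand), the kinase of the complex, had 35.03, 31.3, 32.8 and 32.4 CPM in control libraries 1 to 4 and 59.4, 63.4, 65.8 and 58.3 CPM in cKO libraries 1 to 4. Its mean rose 1.88-fold from 32.9 ± 1.55 to 61.7 ± 3.53 CPM (SD, n = 4) (Log2FC 0.91 ± 0.07 SE, FDR = 2.93e-07). The 3 other subunits rose by less and were not DEGs, namely the scaffold *Incenp* (Log2FC 0.45, FDR = 9.17e-05), borealin *Cdca8* (0.43, FDR = 0.000297) and survivin *Birc5* (0.38, FDR = 0.00176). *Cdca8* overlaps *9930104L06Rik* on the opposite strand, which did not pass (Log2FC -0.15, FDR = 0.351).

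*Aurka* (chr2:172356190-172370535, minus strand), which acts at the spindle poles, had 40.6, 30.4, 33.7 and 34.8 CPM in the control and 51.7, 53.8, 55.6 and 59.2 CPM in the cKO libraries. It rose 1.58-fold from 34.9 ± 4.27 to 55.1 ± 3.18 CPM (SD, n = 4) (Log2FC 0.66 ± 0.08 SE, FDR = 3.88e-05), with control library 1 above the other controls yet below every cKO library.

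*Aurkc* (chr7:6995300-7003091, plus strand), the Aurora kinase used mainly in the meiotic divisions of germ cells, had the lowest level and the highest fold change of the 39 genes. It had 1.23, 1.42, 2.15 and 1.51 CPM in control libraries 1 to 4 and 3.696, 6.84, 6.39 and 7.03 CPM in cKO libraries 1 to 4, from 15 to 24 reads in a control and 31 to 103 reads in a cKO library. A floor of 3 counts corresponds to 0.189 to 0.358 CPM, below every one of these values. The mean rose 3.88-fold from 1.58 ± 0.4003 to 5.99 ± 1.55 CPM (SD, n = 4) (Log2FC 1.96 ± 0.23 SE, FDR = 2.03e-05), with cKO library 1 again the lowest of its group. Per exon length it went from 1.04 to 3.93 CPM per kb, whereas *Aurkb* went from 11.2 to 20.95.

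Of all reads of the 3 Aurora genes, *Aurkc* held 1.604% (95% Clopper-Pearson interval 0.901 to 2.63) in control library 1, the lowest control, and 3.14% (1.999 to 4.67) in control library 3, the highest. It held 3.22% (2.197 to 4.54) in cKO library 1, the lowest cKO library, and 5.64% (4.63 to 6.80) in cKO library 4, the highest. The intervals of control library 3 and cKO library 1 overlap, and they cover counting error only. The mean share was 2.298% ± 0.632 (SD, n = 4) in control and 4.84% ± 1.119 in cKO libraries, a difference of 2.55 percentage points (two-sided p = 0.0286 by an exact permutation test, which with 4 against 4 libraries can reach no lower value). The share uses the same *Aurkc* counts as the fold change and is not independent of it. Taken over *Aurkb* and *Aurkc* alone, the difference was 4.21 points and p = 0.0571 by the same exact test. *Aurkb* and *Aurkc* have closely similar sequences, and reads could have been shared between them in counting.

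Among further kinetochore and centromere genes outside the 39, 14 of 32 tested genes rose and 1 fell, with a median Log2FC of 0.17. The shares over all genes tested were 17.3% higher and 12.5% lower. *Plk1*, the kinase that primes kinetochore proteins, was highest at Log2FC 0.82 (FDR = 1.41e-06), followed by *Cdc20*, the target of the checkpoint (0.70, FDR = 1.80e-05). The shugoshin genes *Sgo2a* (0.67, FDR = 1.69e-05) and *Sgo1* (0.59, FDR = 3.71e-05) also rose, while their recruiting kinase *Bub1* fell. *Cenpv* was the 1 gene of this list that fell (Log2FC -0.55, FDR = 0.00125).

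Among 19 general proliferation markers, 16 rose, 8 of them DEGs, and the median Log2FC was 0.34. Over all genes tested, 17.3% rose and 6.11% were DEGs higher in cKO. *Ccnb1*, the cyclin of mitotic entry, led with 1.29 (FDR = 6.92e-09), with *Cdc25c* at 0.90 and *Ube2c* at 0.79. The summed level of the 19 markers was 2496 to 2686 CPM in control and 3264 to 3428 CPM in cKO libraries, without overlap of the genotypes. How far the 39 genes follow these markers was not tested.

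**Figure D5:**
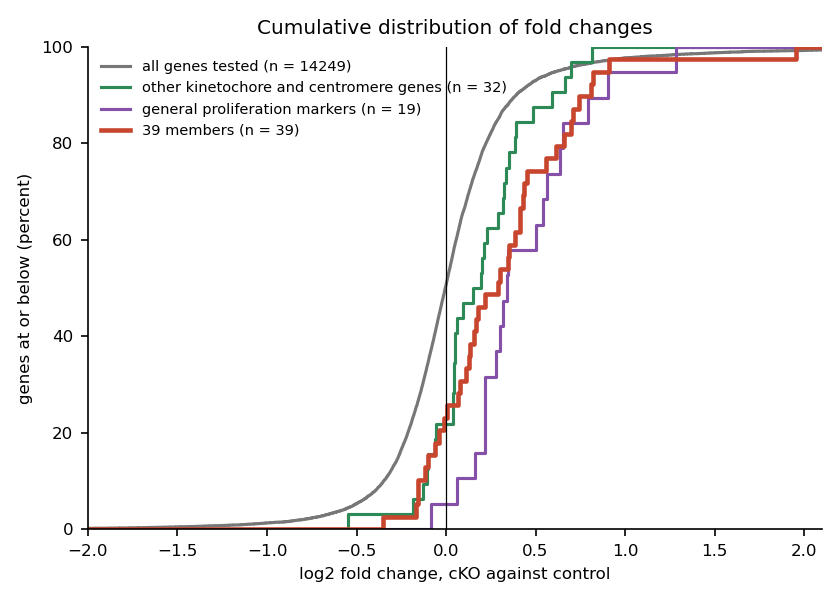
Share of genes, in percent, at or below each Log2FC (cKO against control, axis cut at both ends) for the 39 genes, 32 further kinetochore and centromere genes, 19 general proliferation markers and all 14249 genes tested. The line of the 39 genes lies to the right of the line of all genes over most of its length, with medians of 0.29 and -0.0042, and left of the proliferation markers at their median of 0.34.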

How the data were processed

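Counts per gene symbol were deposited by the authors for each library as whole numbers without normalization. Per the methods and processing notes, reads from a directional kit were trimmed with Trimmomatic 0.39, checked with FastQC 0.11.9 and mapped with STAR 2.5.2 to mm10; the annotation and the strand of counting are not given in the sources used here, so overlapping genes on opposite strands could share reads. The deposited CPM table was not used.

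Genes were filtered with filterByExpr, scaled by TMM and tested in R 4.3.3 with edgeR 4.0.16 (quasi-likelihood F test, genotype as the only term, two-sided, Benjamini-Hochberg FDR over 14249 genes). DEGs had an FDR below 0.05 and an absolute Log2FC above 0.5. SE were derived as the absolute Log2FC divided by the square root of its quasi-likelihood F statistic, and were not reported by the fit itself. Alternatives used limma 3.58.1 and DESeq2 1.42.0, other scalings and filters, a replicate block and each library left out. Counts with known changes were simulated for 14154 genes, with a common dispersion for all genes and independent libraries. There, 66 of 86 genes changed by 0.5 in Log2FC and 105 of 109 changed by 1 were called, and 4 of 13959 unchanged genes. The measured counts need not meet these settings, so these rates check the code and may not hold for the data. Replicate libraries differed beyond sampling noise (chi-square per degree of freedom 3.03 to 8.96).

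The members and gene lists were chosen with earlier results of these data known. Values per library are given for member DEGs, for members that fell, and for the member of each group with the largest change; genes outside the 39 are named, up to 8 beside *Bmpr1a*, from the lists when past both thresholds, and overlapping genes beside the member they touch. The litter of each library is not given in the labels, and the p-values measure the spread between pools of fetuses. Per the methods, the controls were littermates of the cKO fetuses, so libraries can share litters and need not be independent. Gene positions are from GENCODE vM21 on mm10, while promoter windows and stretches are placed by the RefSeq gene start. *Rn45s* was kept in library sizes.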

Additional observations from a re-analysis of the deposited data

Results flagged for a closer look

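In 80 groups of 4 libraries (the 39 genes and the *Aurkc* share in each genotype), 5 held a library far from the other 3 by Dixon's criterion at 95%, where chance gives about 1 in 20. Cenpi was at 29.1 CPM in cKO library 1, against 46.3 to 47.0 in the others. Cenpk was at 12.04 CPM there, against 13.5 to 13.8, Bub3 at 123.8 CPM, against 128 to 129, and Ttk at 38.03 CPM, against 46.3 to 47.9. Ndc80 was at 35.5 CPM in cKO library 4, against 31.95 to 32.3. The first 4 of these concern the library with the lowest sum of germ cell markers among the cKO libraries, and the part of that difference was not tested.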

How the results depend on the processing

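Besides the values in the report, 19 alternatives were computed. The 10 member DEGs were DEGs in every one, and 18 members kept FDR below 0.05 in every one except scaling to germ cell markers. Under that scaling, 10 members were higher and 0 lower (710 and 408 of all genes, all of them DEGs). There, *Bub1* kept its Log2FC (-0.35) at FDR = 0.307. With library size only, 17 members were higher and 2 lower, *Dsn1* joining *Bub1*. Over all genes it gave 1871 higher and 2466 lower at FDR below 0.05, against 2461 and 1781. DEGs numbered 1449 and ranged from 1118 (germ cell markers) to 1733 (no filter on low counts). Leaving out single libraries gave 1288 to 1627 DEGs and 17 to 22 members higher, 1 lower and 10 to 11 member DEGs. In these fits, 1871 to 2806 of all genes were higher, 1216 to 2232 lower and 762 to 1000 were DEGs higher in cKO, out of 14316 to 14437 tested. Leaving out cKO library 1 and control library 3 was chosen after seeing the data. Only genes near zero changed sign. *Mad1l1* had -0.0048 with DESeq2, -0.0045 with RLE, -0.028 with upper-quartile scaling, -0.046 with library size only, -0.0036 without a filter and -0.054 without both libraries, and *Cenpp* had 0.0069 with germ cell markers; the cause was not tested. With single libraries left out, Log2FC spanned -0.0097 to 0.14 for *Cenph*, -0.024 to 0.19 for *Cenpm*, -0.11 to 0.026 for *Cenpp* and -0.040 to 0.051 for *Mad1l1*. The *Aurkc* share differed by 4.21 points when taken over *Aurkb* and *Aurkc*, and by 2.28 to 3.09 points without 1 library, with exact permutation p = 0.0571, the smallest 3 against 4 can give. Replicate numbers were not taken to pair the libraries, since 3 of 4 same-number correlations, not all, were over 0.1 (-0.087 to 0.198, against -0.198 to 0.182 between other numbers). The replicate block gave 1457 DEGs and 20 members higher and 1 lower, with *Ska3* at FDR = 0.0123. With that block, 2715 of 14249 genes were higher and 2056 lower. Aurkc, at 15 to 103 reads, is the member whose depth limits precision most.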
